A study of Mus musculus with 2 samples.

Results

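The IL-1 family comprises secreted cytokines and the receptors that bind them. The 10 genes described here were the ligands Il1a, Il1b, Il1f9, Il18 and Il33, the receptor antagonist Il1rn, and the receptor chains Il1r1, Il1r2, Il1rap and Il1rl1. They were chosen by symbol, each symbol matched 1 row in both count matrices, and they are 10 of the 31053 genes in the files. Levels were read from cells in which 500 or more genes were detected and mitochondrial UMIs did not exceed 6%, after removal of predicted doublets, and are given as CPM, the UMIs of a gene scaled to 1000000 UMIs of the same cells. Each UMI stands for 1 captured molecule at its 3′ end, so different genes were compared on this CPM scale without a correction for transcript length.

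IL-1α and IL-1β both bind the receptor IL1R1, which needs the accessory chain IL1RAP to signal through MYD88 and NF-κB. The antagonist encoded by Il1rn occupies IL1R1 without signalling, and the decoy receptor IL1R2 binds ligand but lacks a signalling domain. IL-33 and its receptor ST2, encoded by Il1rl1, also use IL1RAP. IL-1β and IL-18 are made as precursors that inflammasomes activate, whereas IL-1α and IL-33 are stored in barrier cells and released on damage. In skin wounds these cytokines are known for recruiting myeloid cells and for acting on keratinocytes and fibroblasts.

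The study asked how depletion of CD206-expressing macrophages alters skin wounds. Male C57BL/6 mice, 7 to 9 weeks old, received splinted full-thickness wounds. Tissue was taken on day 5 with a 10 mm punch, wider than the wound, so skin beside the wound may be included. Live 7AAD-negative cells were sorted and captured in droplets, with 3 mice pooled per group. In Mrc1-DTR mice the promoter of Mrc1, which encodes CD206, drives the diphtheria toxin receptor. One library is labelled DTX, from Mrc1-DTR mice given diphtheria toxin, and the other is labelled PBS, from Mrc1-DTR mice given PBS, although the methods describe the controls as wild-type mice given the toxin.

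The labels were checked against the targeted gene and the cell mix. Within macrophage-like cells Mrc1 stood at 492 CPM (477 to 507) in the PBS-labelled and 433 CPM (426 to 441) in the DTX-labelled library, with a UMI in 71.9% and 65.4% of cells. Over all kept cells Mrc1 stood at 65.4 and 268 CPM, while macrophage-like cells made up 21.5% and 66.9% of the cells. The macrophages led by Ccl8 and C1qa were fewer in the DTX-labelled library, at 1249 and 280 cells. Mrc1 was higher in these cells, at 549 and 756 CPM, and in every other macrophage subcluster except that led by Arg1 and Cxcl3, at 510 and 283 CPM. Mrc1 was thus lower in macrophage-like cells as a class but not over all kept cells or in most subclusters. The study describes the wounds of depleted mice as richer in immune cells and poorer in C1qa macrophages, which is the direction of the labels, although its text assigns the larger cell number to those wounds and the PBS-labelled library is the larger here, with 12058 against 11031 barcodes and 105511870 against 81858751 UMIs. The libraries are named by their labels throughout, pairs of values give the PBS-labelled library first, and "higher" and "lower" describe the DTX-labelled library relative to the PBS-labelled one.

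With 1 library of pooled mice per condition no test between conditions was possible, and no p-value is given. Levels have exact 95% Poisson intervals, shares of cells exact Clopper-Pearson intervals and ratios exact conditional binomial intervals, which cover counting error only and not the spread between mice. A ratio is log2(CPM + 1) of the DTX-labelled over the PBS-labelled library, and its interval is that of the ratio without the added 1 CPM. A gene was counted as higher or lower when it had at least 50 UMIs in both libraries together and differed by at least 2-fold on that scale.

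After filtering, 7944 and 6613 cells were kept and their clusters named from marker genes into 11 classes, of which the myocyte-like class, with 7 and 11 cells, was not compared. A total of 37 barcode sequences occurred in both libraries, 13 of them among the kept cells. Epithelial-like cells numbered 2066 and 235 and fibroblast-like cells 3066 and 658, and RNA of these types inside other classes differed in the same direction. In macrophage-like cells the summed fibroblast markers stood at 985 and 204 CPM, with 10 of 10 genes lower, and the keratinocyte markers at 804 and 238 CPM, with 16 of 16 lower, while neutrophil markers stood at 148 and 149 CPM.

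Summed over all kept cells, Il1b stood at 450 CPM in the PBS-labelled and 2642 CPM in the DTX-labelled library (log2 ratio 2.55, 2.54 to 2.57), and Il1rn at 188 and 522 CPM (1.47, 1.44 to 1.50). Il33 was at 531 and 189 CPM, Il1rl1 at 202 and 101 CPM and Il1r1 at 122 and 62.1 CPM. These sums depend on which cells each library held, so the source of each transcript was followed. Dendritic-like cells carried 42.9% and macrophage-like cells 40.4% of all Il1b UMIs in the PBS-labelled library, whereas macrophage-like cells carried 74% in the DTX-labelled library. The border between these classes is uncertain, as the dendritic-like clusters also raised 9 and 7 of the 10 macrophage markers. At resolution 0.4 dendritic-like cells numbered 539 and 609, against 455 and 454 here. The antagonist Il1rn came from epithelial-like (44.3%) and macrophage-like cells (41.2%) in the PBS-labelled library and to 86.4% from macrophage-like cells in the DTX-labelled one. Il1a came mainly from epithelial-like cells in the former (87.8%) and from macrophage-like cells in the latter (70.5%), and Il1f9 from epithelial-like (94.1%) and neutrophil-like cells (59.1%), respectively. The IL-33 receptor gene Il1rl1 was carried mostly by fibroblast-like cells in both, at 95.7% and 92.3%.

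**Figure D1:**
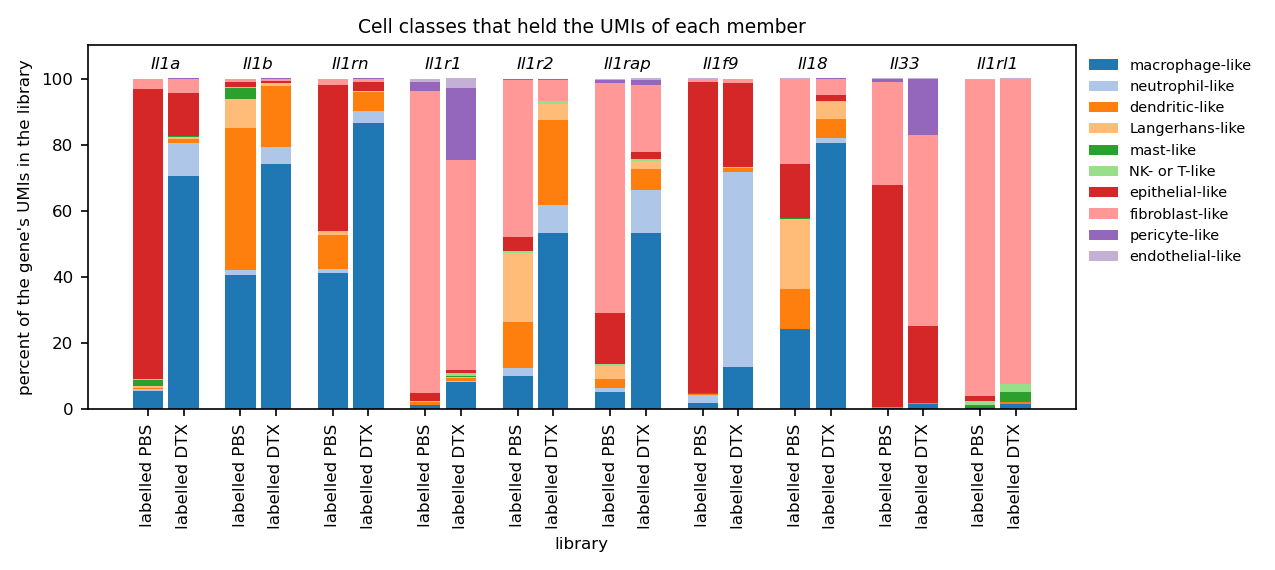
Percent of each gene's UMIs (y axis) held by each cell class, as stacked bars with 1 bar per gene and library (x axis). Macrophage-like cells held 40.4% of Il1b UMIs in the PBS-labelled and 74% in the DTX-labelled library, and fibroblast-like cells held 95.7% and 92.3% of Il1rl1 UMIs.

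Within macrophage-like cells (1711 and 4426 cells), 2 of the 10 genes were higher by at least 2-fold, Il1a and Il1rap, against 1.63% of the 10135 genes counted in this class, and 2 were lower, Il33 and Il1rl1, against 3.4%. The median log2 ratio was 0.29 for the 10 genes and 0.05 for all genes counted. In neutrophil-like cells (124 and 458 cells) 2 of the 6 genes with enough UMIs were higher, Il1a and Il1b, against 6.98% of 2722 genes, and 0 were lower, against 4.7%. The dendritic-like class (455 and 454 cells) had 0 of 8 higher, against 1.26% of 8107 genes, and 2 lower, Il1r1 and Il33, against 1.41%. Bounds on RNA from keratinocytes and fibroblasts, given below, together covered all Il33 UMIs of PBS-labelled macrophage- and dendritic-like cells. They covered much of the Il33 UMIs of DTX-labelled macrophage-like cells. The same held for the Il1rl1 UMIs of macrophage-like cells in both libraries. The part of such RNA in these counts was not tested.

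Outside the myeloid classes, 3 of 9 genes were higher in fibroblast-like cells, Il1a, Il1b and Il1rn, against 2.65% of 11815 genes, and 0 lower, against 1.4%. In epithelial-like cells 1 of 10 was higher, Il1b, against 2.67% of 10288 genes, and 1 lower, Il1rl1, against 2.07%. Both classes held a small subcluster with myeloid leading genes. Without it 1 gene was higher in fibroblast-like cells, Il1b, against 1.31% of 11692 genes, and 0 lower, against 1.47%. The bound on macrophage RNA given below covered nearly all or more of these Il1b UMIs. In epithelial-like cells without it 0 were higher, against 1.35% of 10154 genes, and 2 lower, Il1r2 and Il1rl1, against 2.47%. Neutrophil-like cells without a mixed subcluster had 3 of 6 higher, Il1a, Il1b and Il1f9, against 6.58% of 2005 genes, and 0 lower, against 11.1%.

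**Figure D2:**
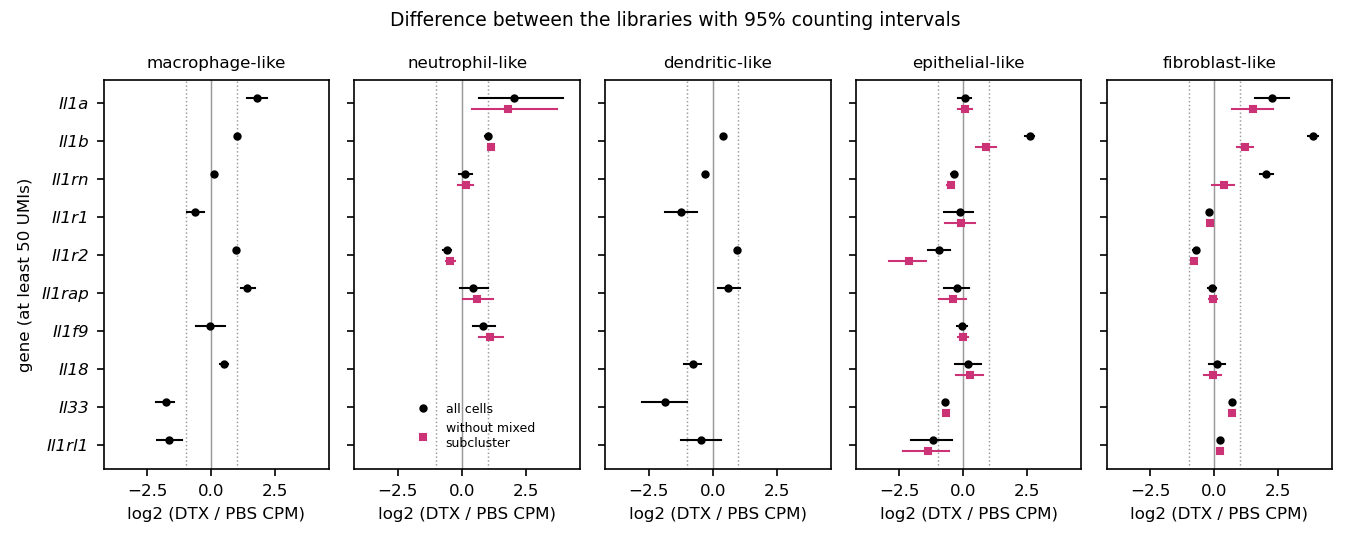
Log2 ratio of DTX-labelled over PBS-labelled CPM (x axis), without an added CPM, for each gene with at least 50 UMIs (y axis) in 5 classes, with exact 95% counting intervals as bars. Black points are all cells of a class, magenta squares leave out the mixed subcluster, and dotted lines mark 2-fold. Il1b lies above 0 in each class, at 3.71 on the log2(CPM + 1) scale in all fibroblast-like cells and 1.11 without the mixed subcluster.

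The agonist genes Il1a and Il1b lie on the minus strand of chromosome 2 (GRCm38, GENCODE M21), Il1a at chr2:129299610-129309972 and Il1b at chr2:129364570-129371139, where the antisense gene Il1bos overlaps Il1b. Both agonist genes were counted as higher in neutrophil-like cells, Il1a on 4 UMIs in the PBS-labelled library and Il1b at the 2-fold limit. The 250 bases before each RefSeq transcript start (GRCm38.p6) are shown for this reason and because these genes encode agonists of the same receptor. They are chr2:129309973-129310222 for Il1a and chr2:129371140-129371389 for Il1b, both read 5′ to 3′ along the minus strand, with capitals marking a TATA box (TATAAA) or an AP-1 consensus (TGANTCA).
Il1a: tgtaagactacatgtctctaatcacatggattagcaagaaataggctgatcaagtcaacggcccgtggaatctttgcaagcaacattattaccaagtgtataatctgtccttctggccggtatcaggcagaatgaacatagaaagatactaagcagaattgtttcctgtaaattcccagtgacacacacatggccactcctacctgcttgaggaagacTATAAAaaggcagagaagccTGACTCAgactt
Il1b: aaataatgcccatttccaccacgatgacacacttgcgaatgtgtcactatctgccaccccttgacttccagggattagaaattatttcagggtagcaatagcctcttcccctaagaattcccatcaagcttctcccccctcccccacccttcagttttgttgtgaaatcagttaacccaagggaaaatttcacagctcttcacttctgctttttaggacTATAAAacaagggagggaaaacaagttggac
Both windows held a TATA box, 32 to 27 bases before the start in Il1a and 31 to 26 bases before it in Il1b, and that of Il1a also held an AP-1 consensus 12 to 6 bases before the start. Searched on both strands, TATAAA occurred in 4063 of 32851 mouse windows of this length (12.4%), the AP-1 consensus in 2217 (6.75%) and the NF-κB consensus in 1281 (3.9%). The 15 windows of the 10 genes held a TATA box in 5, an AP-1 consensus in 2 and the NF-κB consensus in 1, a window of Il1r1. A match is a stretch of letters and not a measured binding site.

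Il1b was the most abundant of the 10 transcripts in macrophage-, neutrophil-, dendritic- and mast-like cells of both libraries. Macrophage-like cells held 14800 Il1b UMIs, 1765 CPM (1737 to 1794), in the PBS-labelled library and 107260 UMIs, 3526 CPM (3505 to 3547), in the DTX-labelled library, a log2 ratio of 1.00 (0.97 to 1.02) that lay just under the 2-fold limit. With cells of more than 2000 genes left out, the limit stated in the methods, 1453 and 1931 macrophage-like cells remained and the ratio was 0.48. Neutrophil-like cells held more than macrophage-like cells in both libraries, 3486 CPM (3208 to 3781) and 6981 CPM (6827 to 7139), with a log2 ratio of 1.00 (0.88 to 1.13).

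The Il1b ratio was smaller in dendritic-like cells, at 3794 and 5012 CPM (0.40), and in Langerhans-like cells, the antigen-presenting cells of the epidermis, at 2572 and 2963 CPM (0.20). Mast-like cells differed the other way, with 6755 and 2285 CPM (-1.56, -1.74 to -1.39), but only 34 and 18 such cells were sampled, and 22 and 8 of them held an Il1b UMI. The leading genes of this class were Mcpt4, Cma1, Cpa3 and Tpsb2 but also Mcpt8 and Prss34. Whether it also held basophils was not tested. The other classes lay far under the myeloid ones, with NK- or T-like cells at 43.6 and 41.6 CPM, pericyte-like cells at 17.9 and 57.8 CPM and endothelial-like cells at 42 and 79.2 CPM.

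The share of macrophage-like cells with an Il1b UMI differed in the direction of the level. After thinning each cell to 2000 UMIs it was 57.7% of 1490 cells in the PBS-labelled library, with 221 shallower cells left out, and 73.4% of 4294 cells in the DTX-labelled library, with 132 left out (66.3% and 84.1% without thinning). In NK- or T-like cells, taken as a class without Il1b, the thinned share was 3.65% and 5.3%, and their median depth was 6534 and 8059 UMIs against 4721 and 6730 UMIs in macrophage-like cells. Il1b was unevenly spread among macrophage-like cells. The median cell held 2 and 9 UMIs, the highest 140 and 257, and the 171 and 443 cells with most Il1b carried 55.9% and 45.3% of all Il1b UMIs. If all S100a8 and S100a9 RNA in macrophage-like cells came from neutrophils, neutrophil RNA would carry 0.368% and 0.207% of the Il1b UMIs there.

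**Figure D3:**
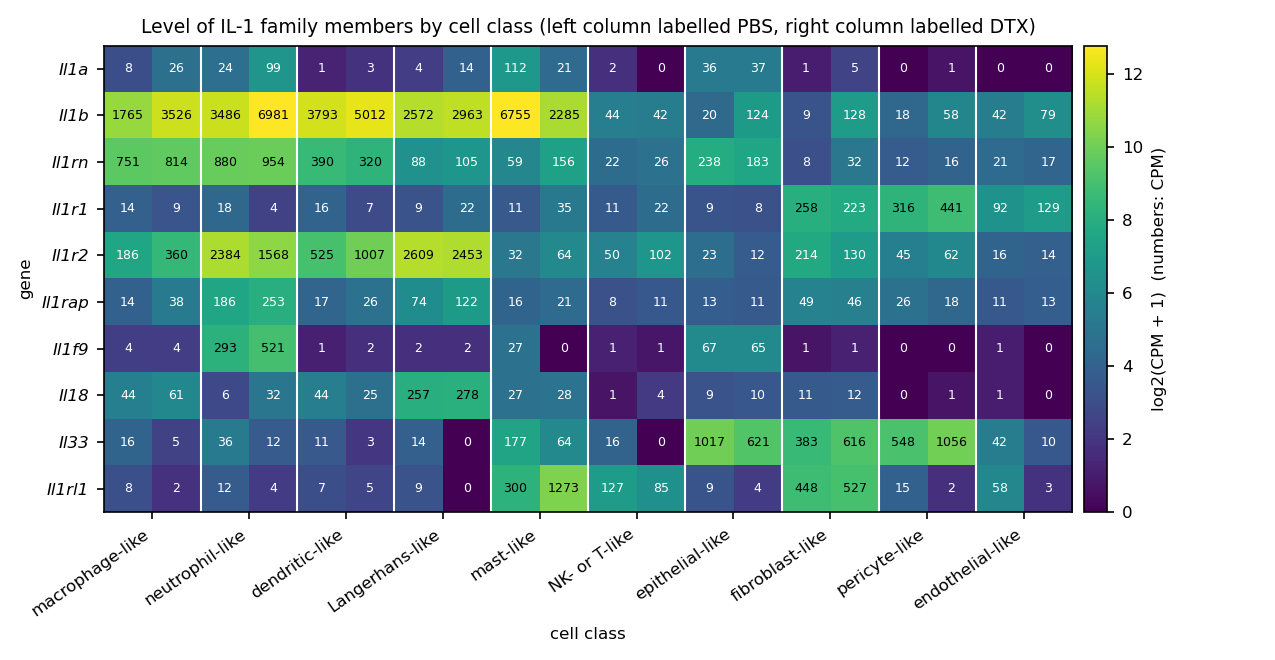
Level of each of the 10 genes (y axis) in each cell class (x axis), with the PBS-labelled library in the left and the DTX-labelled library in the right column of a class. Numbers are CPM and colours log2(CPM + 1). Il1b stands above 1000 CPM in macrophage-, neutrophil-, dendritic-, Langerhans- and mast-like cells of both libraries and at 128 CPM or less in the others.

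Among macrophage subclusters the Il1b difference was uneven. Subcluster 0, led by Ccl8 and C1qa, held 1249 and 280 cells and had 1783 and 1793 CPM. The Vcan-like subcluster, with 35 and 1229 cells, had 1308 and 4599 CPM (log2 ratio 1.81), and the Arg1- and Cxcl3-led subcluster, with 18 and 1151 cells, had 1165 and 2728 CPM (1.23). The Ccl8- and C1qa-led cells, the commonest macrophages of the PBS-labelled library, thus held nearly the same Il1b level in both.

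Higher levels were also seen in the Klf2-like subcluster, at 703 and 1784 CPM (1.34), and the interferon-responsive Ifit1-like subcluster, at 1763 and 4647 CPM (1.40). The Ccl7-like subcluster stood at 789 and 1555 CPM (0.98). The MHC class II-like subcluster, whose leading genes include Il1b itself, was high in both libraries, at 4745 and 5676 CPM (0.26). Applying PBS-labelled levels to the DTX-labelled mix of subclusters gave 1770 CPM. In this order of split the mix gave a log2 ratio of 0.00 and the levels within subclusters 0.99. Such a split depends on which library's levels are applied, here and for the genes below, and only this order was computed. The PBS-labelled levels of the subclusters numbered 1 to 4 rest on 18 to 78 cells each.

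**Figure D4:**
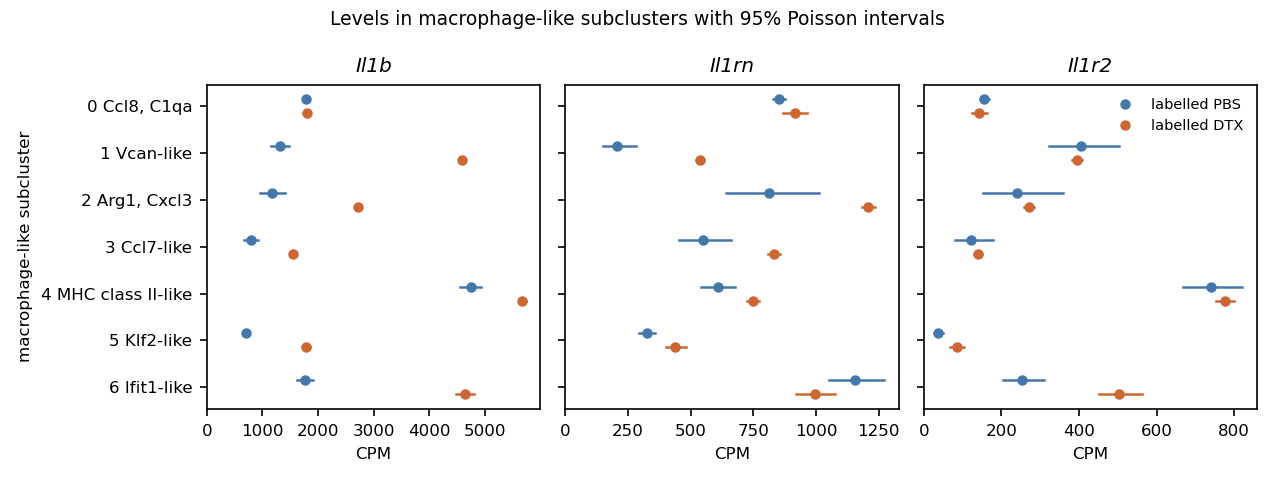
Il1b, Il1rn and Il1r2 levels (x axes, CPM) in the 7 macrophage subclusters (y axis) of each library, with exact 95% Poisson intervals as bars. Il1b is nearly equal in subcluster 0 (1783 and 1793 CPM) and higher in the DTX-labelled library in the Vcan-like subcluster (1308 and 4599 CPM).

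Among dendritic subclusters, Il1b stood at 4399 and 6133 CPM in type 2-like cells, the larger group, and at 2635 and 5847 CPM (log2 ratio 1.15) in type 1-like cells, the cross-presenting subset. Mature-like cells held 2291 and 2758 CPM. A further subcluster of 31 and 41 cells, led by Ctsk, Acp5 and Mmp9 and by cell-cycle genes with no dendritic marker among its leading genes, was lower in the DTX-labelled library, at 4667 and 1811 CPM (-1.37).

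Fibroblast-like cells showed the largest Il1b ratio of any class, 309 UMIs and 8.82 CPM against 1240 UMIs and 128 CPM (log2 ratio 3.71, 3.67 to 4.04), at levels far under those of myeloid cells. Of these UMIs, 65 and 1095 lay in the mixed subcluster of 25 and 45 cells. Without it the levels were 7.03 and 16.3 CPM (1.11, 0.91 to 1.52), and with cells of more than 2000 genes left out the ratio was -0.04. Macrophage marker RNA in fibroblast-like cells stood at 105 and 344 CPM (1.71), and RNA of that kind would carry 125% and 82.4% of their Il1b UMIs, or 90.1% and 108% without the mixed subcluster. Epithelial-like cells likewise had 20.5 and 124 CPM with their mixed subcluster and 10.6 and 19.5 CPM (0.82) without it.

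Il1a was far rarer than Il1b in myeloid cells. Epithelial-like cells, the known store of IL-1α in skin, held 35.5 CPM (33.4 to 37.8) and 36.8 CPM (31 to 43.4), and their infundibulum-like subcluster, from the upper hair follicle, held 85.6 and 71.6 CPM against 18 and 12.7 CPM in spinous-like cells. Macrophage-like cells held 63 UMIs, 7.51 CPM (5.77 to 9.61), and 778 UMIs, 25.6 CPM (23.8 to 27.4), a log2 ratio of 1.64 (1.40 to 2.16). The epithelial level of Il1a was thus alike in both libraries, while that of macrophage-like cells was not. Neutrophil-like cells stood at 24 CPM on 4 UMIs and 99.1 CPM on 110 UMIs (2.00, 0.65 to 3.95), and mast-like cells at 112 CPM on 21 UMIs and 21.2 CPM on 3 UMIs.

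The Vcan-like and the Arg1- and Cxcl3-led macrophages held 32.1 and 44.3 CPM of Il1a in the DTX-labelled library and 0 UMIs in the PBS-labelled library, where they were few. In DTX-labelled macrophage-like cells, after thinning, Il1a was found in 4.35% of cells with an Il1b UMI (3.66 to 5.12) and 1.57% of those without (0.936 to 2.48). In the PBS-labelled library the shares were 1.63% and 1.74%. Whether the libraries differed in this, or whether it held within subclusters, was not tested.

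Il1rn, the antagonist gene, lies on the plus strand of chromosome 2 at chr2:24336853-24351494. It has 3 RefSeq starts, and its products differ in whether they are secreted. The 250 bases before the first start (chr2:24336610-24336859) and before the next (chr2:24345041-24345290), both on the plus strand of GRCm38.p6, are shown because counts at the 3′ end cannot tell transcripts from these starts apart. Capitals mark an AP-1 consensus, 141 to 135 bases before the first start.
Il1rn start 1: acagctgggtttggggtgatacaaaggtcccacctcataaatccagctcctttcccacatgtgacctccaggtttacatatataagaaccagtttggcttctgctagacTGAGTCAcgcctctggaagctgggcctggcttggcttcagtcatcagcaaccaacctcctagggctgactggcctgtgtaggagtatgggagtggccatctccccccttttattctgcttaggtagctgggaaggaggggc
Il1rn start 2: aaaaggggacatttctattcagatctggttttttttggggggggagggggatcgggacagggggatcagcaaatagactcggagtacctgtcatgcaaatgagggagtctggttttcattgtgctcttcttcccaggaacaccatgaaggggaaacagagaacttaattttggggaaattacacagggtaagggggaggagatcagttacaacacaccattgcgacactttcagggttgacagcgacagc
The window before the second start held none of the motifs searched.

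The Il1rn level in macrophage-like cells was close in both libraries, 751 CPM (732 to 769) and 814 CPM (803 to 824), a log2 ratio of 0.12 (0.08 to 0.16). Neutrophil-like cells held 880 CPM (744 to 1035) and 954 CPM (898 to 1014). Dendritic-like cells stood at 390 and 320 CPM (-0.29) and epithelial-like cells, in which the intracellular form is known, at 238 and 183 CPM (-0.37). The antagonist thus differed less between the libraries than its agonist Il1b did in the same myeloid cells. Fibroblast-like cells had 7.76 and 32 CPM (1.91), which became 5.51 and 7.09 CPM (0.31) without the mixed subcluster.

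The number of Il1rn UMIs per Il1b UMI was 0.425 (0.413 to 0.438) and 0.231 (0.228 to 0.234) in macrophage-like cells. This difference nearly vanished, at 0.46 and 0.417, when cells of more than 2000 genes were left out. The quotient was 0.253 and 0.137 in neutrophil-like, 0.103 and 0.0637 in dendritic-like and 0.0342 and 0.0355 in Langerhans-like cells. Spinous-like keratinocytes had far more antagonist than Il1b RNA, 31.4 and 18.7 Il1rn UMIs per Il1b UMI, and type 1-like dendritic cells nearly none, 0.00662 and 0.00122.

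Within macrophage subclusters the quotient was 0.478 and 0.511 in the Ccl8- and C1qa-led cells and 0.128 and 0.132 in the MHC class II-like cells. It was lower in the DTX-labelled library in the other 5 subclusters, most so in the Ifit1-like one, at 0.656 and 0.214. The intervals overlapped, however, in Vcan-like (0.112 to 0.221 and 0.113 to 0.12) and Ccl7-like cells (0.545 to 0.887 and 0.516 to 0.555). Il1rn itself was higher in several subclusters, with 208 and 537 CPM in Vcan-like, 811 and 1208 CPM in Arg1- and Cxcl3-led and 550 and 832 CPM in Ccl7-like cells. The DTX-labelled mix at PBS-labelled levels gave 541 CPM, a log2 ratio of -0.47 from mix against 0.59 from levels. These parts rest on PBS-labelled levels of few cells in several subclusters. The other order of split was not computed, so no conclusion is drawn from their opposite signs. In thinned PBS-labelled macrophage-like cells 62% of cells with Il1b held Il1rn against 52.1% of cells without it, and in DTX-labelled cells 63.4% against 61.1%.

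Il1r1, the signalling receptor, was mainly a stromal transcript. Fibroblast-like cells held 258 CPM (252 to 263) and 223 CPM (214 to 233). Pericyte-like cells held 316 and 441 CPM (log2 ratio 0.48, 0.28 to 0.68) and endothelial-like cells 92.5 and 129 CPM (0.47). NK- or T-like cells held 11.1 and 21.9 CPM. Of their 31 DTX-labelled UMIs, 21 lay in a subcluster of 35 cells led by Il17a and Il5. Macrophage-like cells lay at 14.2 and 9.21 CPM and dendritic-like cells at 15.5 and 6.63 CPM on 64 and 35 UMIs (-1.11), where the ratio was 1.13 with cells of more than 2000 genes left out, a setting that kept 40 and 3 dendritic-like cells. Fibroblast marker RNA in dendritic-like cells stood at 645 and 136 CPM, and its part in the Il1r1 ratio was not tested. The classes with the most Il1b therefore held little Il1r1, and the fibroblast- and pericyte-like cells with the most Il1r1 held little Il1b.

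Il1r2, the decoy receptor, was highest in Langerhans-like cells at 2609 CPM (2520 to 2700) and 2453 CPM (2306 to 2608), a log2 ratio of -0.09 (-0.19 to 0.01), and in neutrophil-like cells at 2384 and 1568 CPM (-0.60, -0.76 to -0.44). Macrophage-like cells held 186 CPM (176 to 195) and 360 CPM (353 to 367), a ratio of 0.95 (0.88 to 1.03) that became 0.30 with cells of more than 2000 genes left out. Dendritic-like cells held 525 and 1007 CPM (0.94, 0.87 to 1.01) and fibroblast-like cells 214 and 130 CPM (-0.72, -0.81 to -0.63). The decoy was thus higher in macrophage- and dendritic-like cells and lower in neutrophil- and fibroblast-like cells, by less than 2-fold in each. NK- or T-like cells stood at 50.3 and 102 CPM, of which regulatory T-like cells, 49 and 34 in number, held 157 and 319 CPM on 66 and 115 UMIs.

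For Il1r2 in macrophage-like cells the same order of split gave 0.88 of the log2 ratio from the mix of subclusters and 0.08 from the levels. Il1r2 stood at 156 and 143 CPM in the Ccl8- and C1qa-led cells, the Vcan-like cells had 406 and 395 CPM, and the level was 741 and 776 CPM in the MHC class II-like cells, whose leading genes include it. In dendritic-like cells the mix gave 0.06 and the levels 0.88, with type 2-like cells at 755 and 1525 CPM and type 1-like cells at 136 and 551 CPM (2.02). Il1r2 was lower in the other dendritic subclusters, the mature-like cells at 255 and 173 CPM (-0.56) and the Ctsk-led cycling cells at 345 and 109 CPM (-1.65). Il1r2 UMIs per Il1r1 UMI were 13.1 and 39.1 in macrophage-like, 33.9 and 152 in dendritic-like and 0.829 and 0.581 in fibroblast-like cells.

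Thinned to 2000 UMIs, 20.4% and 34.3% of macrophage-like cells held an Il1r2 UMI (31.8% and 54.7% without thinning), against 5.94% and 13.2% of NK- or T-like cells and 92.5% and 88.9% of Langerhans-like cells. Macrophage-like cells with Il1b held Il1r2 more often, 25.7% against 13.2% of cells without Il1b in the PBS-labelled and 38.9% against 21.6% in the DTX-labelled library. The MHC class II-like cells were high in both genes, and whether the pairing held within subclusters was not tested. Il1b, Il1r2 and Il1rap also stand in the study's marker list of Vcan macrophages, which was drawn from these libraries and is not independent.

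Il1rap, the shared accessory chain, was highest in neutrophil-like cells at 186 CPM (126 to 264) and 253 CPM (224 to 284). Macrophage-like cells held 121 UMIs, 14.4 CPM (12 to 17.2), and 1165 UMIs, 38.3 CPM (36.1 to 40.6), a log2 ratio of 1.35 (1.14 to 1.69). Langerhans-like cells held 73.8 and 122 CPM (0.72) and fibroblast-like cells 48.9 and 46.2 CPM. Of the 4 receptor chains, Il1rap thus had the largest ratio in macrophage-like cells, from a low level. Of the 1165 DTX-labelled UMIs, 487 lay in the Vcan-like and 330 in the Arg1- and Cxcl3-led subcluster. These subclusters held 35 and 18 cells in the PBS-labelled and 1229 and 1151 in the DTX-labelled library. The part of the mix of subclusters in the Il1rap ratio was not tested.

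Il1f9, which encodes the ligand IL-36γ, was a transcript of neutrophil- and epithelial-like cells. It stood at 293 CPM (217 to 388) and 521 CPM (480 to 566) in neutrophil-like cells (log2 ratio 0.83, 0.41 to 1.28) and at 67 CPM (64 to 70) and 64.6 CPM (56.9 to 73.2) in epithelial-like cells. All other classes lay under 27 CPM, with macrophage-like cells at 4.17 and 4.01 CPM. Among keratinocytes, spinous-like cells held 102 and 109 CPM and infundibulum-like cells 52.9 and 73.9 CPM. Leaving out a subcluster of mixed neutrophil-like cells, of 6 and 44 cells, gave Il1f9 levels of 305 and 661 CPM (1.11), past 2-fold, and Il1b levels of 3800 and 8341 CPM (1.13). In all neutrophil-like cells fibroblast marker RNA was lower, with a log2 ratio of -2.65, and keratinocyte RNA too, with -2.49. Neutrophil markers stood at 45413 and 90836 CPM (1.00) in all these cells and at 51160 and 120124 CPM (1.23) without the mixed subcluster. The part of these differences in the Il1b and Il1f9 ratios was not tested.

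Il18 was highest in Langerhans-like cells, at 257 CPM (230 to 287) and 278 CPM (229 to 333), intervals that overlap. Macrophage-like cells held 43.9 and 61.2 CPM (log2 ratio 0.47, 0.32 to 0.65) and dendritic-like cells 43.8 and 25.4 CPM (-0.76). Macrophage- and dendritic-like cells thus shared a level of Il18 in the PBS-labelled library and differed in the DTX-labelled one. Il18bp, which encodes the soluble inhibitor of IL-18, stood at 41.7 and 24.5 CPM in macrophage-like cells (-0.75), and Il18rap, a chain of the IL-18 receptor, at 3.94 and 11.3 CPM (1.32).

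Il33, an alarmin kept in the nucleus, was the most abundant of the 5 ligand genes in epithelial-, fibroblast- and pericyte-like cells. Epithelial-like cells held 28947 UMIs, 1017 CPM (1005 to 1028), and 2413 UMIs, 621 CPM (597 to 647), a log2 ratio of -0.71 (-0.77 to -0.65). Fibroblast-like cells held 383 CPM (376 to 389) and 616 CPM (601 to 632), a ratio of 0.68 (0.64 to 0.73), and pericyte-like cells 548 CPM (500 to 599) and 1056 CPM (1007 to 1106), a ratio of 0.94 (0.80 to 1.09). Il33 was therefore lower in epithelial-like and higher in both stromal classes, in none of them by 2-fold. After thinning, 48.4% and 29.3% of epithelial-like, 23.6% and 30% of fibroblast-like and 31.6% and 45.4% of pericyte-like cells held an Il33 UMI, against 3.36% and 0.862% of macrophage-like cells.

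Subclusters differed in Il33 by more than the libraries did. In epithelium, spinous-like cells held 1496 and 1491 CPM and the Igfbp3- and Itga2-led cells 1711 and 1563 CPM, while infundibulum-like cells held 138 and 74.7 CPM. Cycling-like keratinocytes had 702 CPM in the PBS-labelled library, and the DTX-labelled library had 5 such cells with 0 Il33 UMIs. The DTX-labelled mix of subclusters at PBS-labelled levels gave -0.55 of the -0.71. In fibroblasts Il33 was highest in the small Apod- and Ccl11-led subcluster, at 2747 and 2956 CPM on 20 and 24 cells, followed by the Plac8-like subcluster at 761 and 902 CPM. The other large subclusters were low and differed in direction. Il33 stood at 80.1 and 144 CPM (0.83) in the Igfbp2- and Grem1-led cells, but at 246 and 72.6 CPM (-1.74) in the Ctla2a- and Gpx3-led and 64.9 and 37.7 CPM (-0.77) in the Coch- and Fmod-led cells. Mix gave 0.45 and levels 0.24 of the ratio over all fibroblast-like cells, so that the higher level was not shared by every subcluster.

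Il33 in macrophage-like cells stood at 16.1 CPM (13.5 to 19.1) on 135 UMIs and 4.67 CPM (3.93 to 5.5) on 142 UMIs, a log2 ratio of -1.59 (-2.14 to -1.44). It differed in the same direction as the keratinocyte and fibroblast RNA of that class. At the Il33 content of epithelial-like cells, the keratinocyte RNA there would carry 107 of the 135 UMIs (79.5%) and 66.3 of the 142 UMIs (46.7%), and fibroblast RNA a further 23.5% and 36.3%. Dendritic-like cells held 45 and 16 Il33 UMIs (-1.56), and keratinocyte RNA would carry 102% of the former. NK- or T-like cells held 26 UMIs and 0 UMIs, at least 7.54-fold lower with 3 counts as the floor of the DTX-labelled library. Keratinocyte RNA in NK- or T-like cells stood at 938 and 299 CPM, and its part in this difference was not tested. Il33 also stands in the study's marker list of C1qa macrophages, which was drawn from these libraries.

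Il1rl1, the IL-33 receptor gene, was a transcript of fibroblast-, mast- and some lymphoid-like cells. It has membrane-bound and soluble products, which counts per gene do not tell apart. Fibroblast-like cells held 448 CPM (441 to 455) and 527 CPM (512 to 541), a log2 ratio of 0.23 (0.19 to 0.28), and mast-like cells 300 CPM (227 to 390) and 1273 CPM (1094 to 1474), a ratio of 2.08 (1.65 to 2.55) on 17 of 34 and 14 of 18 cells. Regulatory T-like cells, 49 and 34 in number, stood at 413 CPM on 173 UMIs and 205 CPM on 74 UMIs. In the DTX-labelled library 15 NK- or T-like cells carried 97.5% of the Il1rl1 UMIs of that class. The subcluster named type 2 innate lymphoid-like stood at 101 and 171 CPM. Its leading genes include Il5 and Il13 but also Il17a and Cd163l1, markers used here for gamma delta T cells, so it may be mixed. Receptor levels were thus highest in fibroblast-like, mast-like and regulatory T-like cells. Macrophage-like cells lay at 7.75 and 2.5 CPM (-1.32), of which fibroblast RNA would carry 56.6% and 56.5%. Endothelial-like cells held 61 UMIs, all in 6 cells, and 2 UMIs (58.2 and 2.6 CPM, -4.04, -7.56 to -2.57).

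Il1rl1 was highest in the fibroblast subcluster where Il33 was also high, the Plac8-like cells, at 822 and 696 CPM, but not in the Apod- and Ccl11-led cells. After thinning, 46.5% of PBS-labelled fibroblast-like cells with an Il33 UMI held Il1rl1 (42.8 to 50.3) against 21.3% of cells without (19.6 to 23), and the shares were 45.1% and 22.4% in the DTX-labelled library. Cells with the ligand gene thus held the receptor gene more often than cells without it, over a class in which the Plac8-like cells were high in both. Whether this held within subclusters was not tested. The IL-1 receptors were ordered differently. Il1r1 stood at 170 and 213 CPM in Plac8-like against 331 and 309 CPM in Igfbp2- and Grem1-led cells, and Il1r2 at 78.4 and 80 CPM in Plac8-like against 330 and 421 CPM in Ctla2a- and Gpx3-led cells.

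**Figure D5:**
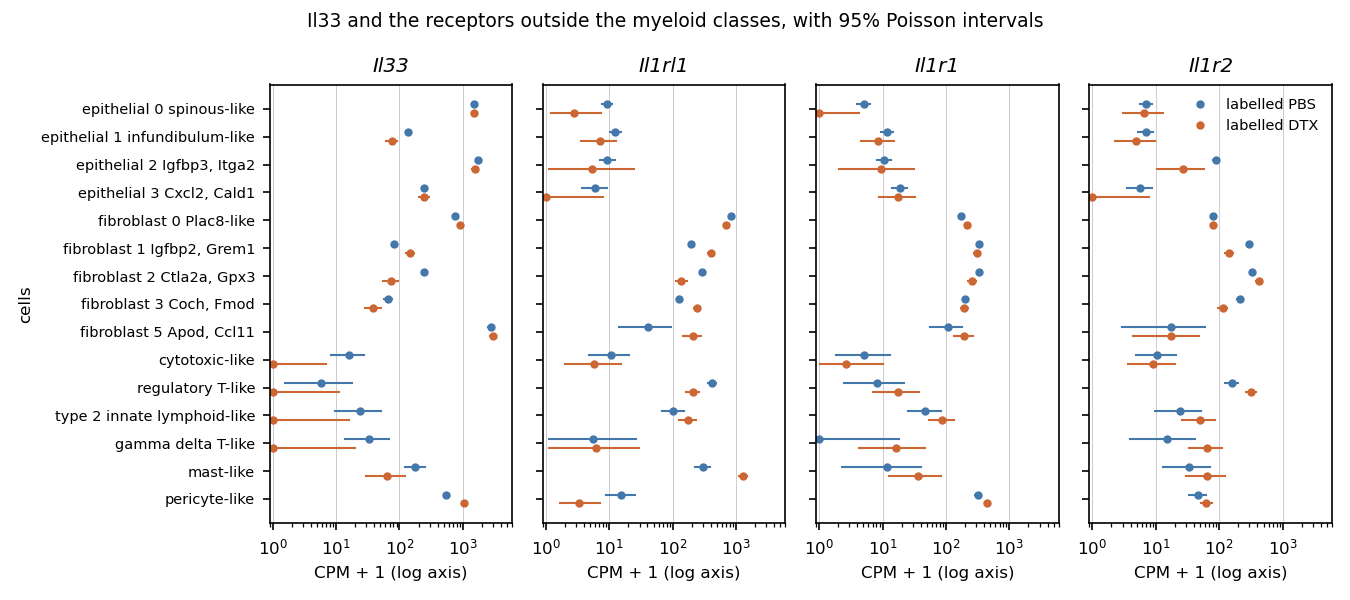
Il33, Il1rl1, Il1r1 and Il1r2 levels (x axes, CPM + 1 on a log scale) in non-myeloid subclusters and classes and in mast-like cells (y axis) of each library, with exact 95% Poisson intervals as bars. Spinous-like cells hold 1496 and 1491 CPM of Il33, and Plac8-like fibroblasts hold more Il33 and Il1rl1 and less Il1r2 than the Ctla2a- and Gpx3-led fibroblasts. The type 2 innate lymphoid-like subcluster also has Il17a and Cd163l1 among its leading genes.

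Other genes of the pathway were read from lists made by function. In macrophage-like cells 0 of 16 adaptor and kinase genes and 0 of 17 NF-κB genes differed by 2-fold in either direction, with median log2 ratios of 0.23 and 0.13, beside 1.63% higher and 3.4% lower among all genes of this class, at which rates lists of this size hold few or none. Of the inflammasome and processing genes 1 of 16 was higher and 0 lower, and the higher one was Prtn3 (1.75), a granule protease able to cut IL-1 family precursors. The IL-1-responsive genes differed both ways, with 4 of 20 higher, 4 lower and a median of 0.22. The chemokine gene Ccl2 stood at 546 and 1500 CPM (1.46), the acute-phase gene Saa3 at 84.8 and 227 CPM (1.41) and Lcn2 at 2.27 and 11 CPM (1.88). The fourth, Cxcl2 at 2642 and 5438 CPM (1.04), and Has1 among the lower ones (-1.61) were named after their values were seen. The other lower genes were the matrix proteases Mmp3 (-2.08) and Mmp13 (-1.24) and the adhesion gene Vcam1 (-1.68). These differed in the same direction as the fibroblast RNA of the class. Mmp3 and Vcam1 also stand in the study's marker list of C1qa macrophages. Saa3, Lcn2 and Prtn3 stand in that of Vcan macrophages and Ccl2 in that of Ccl7 macrophages. These lists were drawn from these libraries. The Ccl8- and C1qa-led subcluster held 1249 and 280 cells, the Vcan-like 35 and 1229 and the Ccl7-like 48 and 910. The parts of fibroblast RNA and of the mix of subclusters in these ratios were not tested.

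In fibroblast-like cells, which carried most Il1r1, 2 of 24 IL-1-responsive genes were higher and 1 lower (median 0.31), and 0 of 17 NF-κB genes differed by 2-fold, beside 2.65% higher and 1.4% lower among all genes of this class. The higher ones were the cytokine gene Csf2, at 25.4 and 57.9 CPM (1.16), and the growth factor gene Ereg, at 28.9 and 67.3 CPM (1.19), and both kept 2-fold without the mixed subcluster (1.26 and 1.15). The inflammasome sensor gene Nlrp3 stood at 6.96 and 20.7 CPM (1.44), or 6.43 and 11 CPM (0.69) without those cells. Named after their values were seen, Ccl20 was the lower one (-1.35), Mefv the second higher inflammasome gene of 15 (2.21) and Irak2 the 1 higher of 16 adaptor genes (1.09). Without the mixed subcluster 0 inflammasome and 0 adaptor genes were higher.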

How the data were processed

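The deposited files hold raw UMI counts per gene and barcode for 2 libraries, which the authors made with Cell Ranger 6.1.1 (file header and submitters' processing notes) on mm10. Fold changes of the authors were not used. The depth was 105511870 UMIs in 12058 barcodes labelled PBS and 81858751 UMIs in 11031 barcodes labelled DTX. Per the methods there were 2 technical replicates and none from separate mice.

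Barcodes with 500 or more genes and no more than 6% mitochondrial UMIs were kept (8326 and 7188). Predicted doublets were then removed with Scrublet in scanpy 1.11.5, 382 by its threshold in the PBS-labelled library and the 575 cells with the highest scores (8%) in the DTX-labelled library, where the threshold called 0. Cells were clustered in Seurat 5.3.0 (R 4.3.3) on 2000 variable genes without the 10 genes described, with 30 principal components and a resolution of 0.2 (0.5 for macrophage and lymphoid subclusters). A cluster was named from fixed markers where at least 3 were raised, and the order of naming rules was settled after the clusters were seen. Subclusters of fibroblast-, epithelial- and neutrophil-like cells with 3 or more macrophage or MHC class II genes among their 10 leading genes were left out as an alternative chosen after seeing the data.

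UMIs were summed per class and library, and 1 CPM was added before log2. With 1 library per group no test was run. Shares of cells were taken after thinning each cell to 2000 UMIs (random seed 1). Genes were counted with at least 50 UMIs and a 2-fold difference. The bound on RNA from another cell type multiplied that type's marker UMIs in a class by the gene's UMIs per marker UMI in the source class. Interval code was tested on simulated data. The 10 genes and the gene lists were chosen with earlier results of these data known. Named pathway genes were those with at least 200 UMIs and 2-fold apart, up to 5 per direction in macrophage- and fibroblast-like cells, plus any other ligand, receptor or inhibitor with 50 UMIs. Promoter windows came from RefSeq (GRCm38.p6). Alternatives were doublets kept, at most 2000 genes per cell, 10% mitochondrial UMIs, the 10 genes used in clustering, resolution 0.4, scaling without the 100 highest genes, equal weight per cell, 0.1 or 10 CPM added, minimum UMIs of 1 or 200 and thinning to 1000 UMIs.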

Additional observations from a re-analysis of the deposited data

Results flagged for a closer look

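Il1b differed in opposite directions between classes, with a log2 ratio of DTX-labelled over PBS-labelled CPM of 3.71 in fibroblast-like cells and -1.56 in mast-like cells. There is 1 library per condition, so the difference between the classes was not tested. The mast-like values rest on 34 and 18 cells of a class that also had Mcpt8 and Prss34 among its leading genes. Without the mixed subcluster the fibroblast ratio was 1.11. Il1rl1 likewise had a ratio of 2.08 in mast-like and -4.04 in endothelial-like cells, a difference that was not tested either, and the endothelial UMIs of the PBS-labelled library came from 6 cells.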

How the results depend on the processing

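No paired analysis was possible because each condition had 1 library. Of the 63 log2 ratios of the 10 genes with enough UMIs, 44 moved by less than their counting interval with doublets kept, 49 with 10% mitochondrial UMIs, 59 with the 10 genes among the clustering genes, 61 at resolution 0.4, 57 without the 100 highest genes in the scaling, 52 with equal weight per cell, 63 with 0.1 CPM and 55 with 10 CPM added. At most 2000 genes per cell changed more, with 15 of 53 within the interval. Under it the log2 ratio in macrophage-like cells was 0.48 for Il1b and 0.33 for Il1rn, Il1rn UMIs per Il1b UMI were 0.46 and 0.417, the genes past 2-fold were 4 in epithelial-like and 1 in dendritic-like cells, and the ratio changed sign to 1.13 for Il1r1 in dendritic-like and -0.04 for Il1b in fibroblast-like cells. With doublets kept, Il33 in endothelial-like cells changed sign to 0.37 and 1 gene was past 2-fold in fibroblast-like cells, as without the mixed subcluster. The Il1b ratio in macrophage-like cells was 0.96 with doublets kept or the 10 genes used in clustering, 0.97 with 10% mitochondrial UMIs, 1.03 at resolution 0.4 or with equal weight and 0.93 without the 100 highest genes, where that of Il1rn was 0.05. Il1rn UMIs per Il1b UMI were 0.445 and 0.242 at resolution 0.4, 0.519 and 0.277 with equal weight, and in the DTX-labelled library 0.237 with doublets kept or the 10 genes used in clustering and 0.236 with 10% mitochondrial UMIs. With 10% mitochondrial UMIs 1 gene was past 2-fold in neutrophil-like and 1 in epithelial-like cells. With 10 CPM added the number was 1 in macrophage-, neutrophil- and epithelial-like cells and 0 in dendritic-like cells. Equal weight gave 1 in dendritic-like cells, a minimum of 200 UMIs gave 1 in neutrophil- and 0 in dendritic-like cells, and a minimum of 1 UMI gave 6 in neutrophil-like cells. Where no value above shows it, the cause was not tested. Cell number limited mast-, Langerhans-, pericyte- and endothelial-like cells most. Depth limited neutrophil-like cells most, with medians of 1212 and 1914 UMIs, and thinning to 2000 UMIs kept 6 of the 124 in the PBS-labelled library. With 1 library per condition the spread between mice is unknown.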

Other observations

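Other members of the family were read in several classes. In epithelial-like cells the IL-36 receptor antagonist gene Il1f5 stood at 60.4 and 85.5 CPM in the PBS- and DTX-labelled libraries, the ligand genes Il1f6 and Il1f8 at 13.4 and 21.9 CPM and at 3.27 and 5.15 CPM, and their receptor gene Il1rl2 at 52.7 and 46.6 CPM. Il1rl2 stood above these levels in fibroblast-like cells, at 75.6 and 75.5 CPM. The IL-18 receptor chain gene Il18rap was read only in macrophage-, neutrophil-, dendritic-, epithelial- and fibroblast-like cells. Among these it was highest in neutrophil-like cells, at 114 and 125 CPM, against 10.6 and 18.7 CPM in dendritic-like cells. Its level in NK- or T-like cells was not read.

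The genes whose levels were most like those of each member were taken by Pearson's r of log2(CPM + 1) over 17 pools of class and library with at least 50 cells, among 12101 genes. These pools share libraries and depth, so the values are descriptions. Il1b was most like Csf2ra (0.98), the receptor gene for GM-CSF, followed by Alox5ap and Synj1. Il1rn was most like Efhd2 (0.98), Adam8 and Plbd1, and Il1r2 like Apobr (0.94), Antxr2 and Best1. Il1r1 was most like Runx1t1 (0.97), C1qtnf1 and Nid1, Il33 like Ndufa4l2 (0.95), and Il1rl1 like AW551984 (0.90), Penk and Fbxo17. Il1a was most like Il1f9 (0.89), itself one of the 10 genes, and Il1f9 like Aqp9 (0.97), a neutrophil gene. Il18 was most like Flrt3 (0.90) and Il1rap like Med7 (0.89).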
